A study of Saccharomyces cerevisiae with 14 samples.

Results

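The mitochondrial pyruvate carrier and the pyruvate dehydrogenase complex are encoded in budding yeast by 8 genes that were followed here through a pulse of rapamycin. The genes were chosen by function with earlier results of these arrays in view, and the pairing of MPC2 with MPC3 was chosen by their measured values on these same arrays, where MPC3 had been seen among the strongest early rises. Each of the 8 had 1 probe set of its own, among 5498 single-gene probe sets for 5449 genes. They were the carrier genes MPC1 (YGL080W), MPC2 (YHR162W) and MPC3 (YGR243W) and the dehydrogenase genes PDA1 (YER178W), PDB1 (YBR221C), LAT1 (YNL071W), LPD1 (YFL018C) and PDX1 (YGR193C). Values of MPC2 and MPC3 are therefore given as a description with no test, and the other 6 genes carry p-values adjusted over all 5449 genes.

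The carrier moves pyruvate, the end product of glycolysis, across the inner mitochondrial membrane as a dimer of 2 different subunits. Mpc1 is the common subunit. In budding yeast Mpc2 is its partner in fermenting cells and Mpc3 its partner in respiring cells. Inside the matrix the dehydrogenase complex turns pyruvate into acetyl-CoA for the citric acid cycle. Pda1 and Pdb1 form the decarboxylating component, Lat1 is the acetyltransferase core, Lpd1 is the dehydrogenase that reoxidises the lipoyl groups, and Pdx1 tethers Lpd1 to the core. Lpd1 also serves the 2-oxoglutarate dehydrogenase and glycine cleavage enzymes.

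Wild-type Saccharomyces cerevisiae YSBN6 was grown in fermentors (minimal medium, 20 g/L glucose and 1 g/L glutamine), and rapamycin, which inhibits TOR complex 1, was given at 400 µg/L during exponential growth. The 14 Affymetrix arrays came from 3 fermentations, BY005, BY006 and BY007. Each gave a steady-state sample 10 min before the pulse and samples 7 and 24 min into it. The times 3, 10, 14, 56 and 120 min came from BY005 only. Every culture received rapamycin and none was followed without it, so time in batch culture and the drug cannot be told apart. The values are normalised RMA intensities on a log2 scale, in which each array is set to a like overall distribution, so a difference is relative to the other genes on the array. The median gene lay between 10.64 and 10.79 on every array, and the excess of ACT1 signal at its 3' end over its 5' end, a sign of RNA integrity, between 0.59 and 0.83. Probe sets for fission yeast, which should not bind this RNA, had a 95th percentile of 5.77, and the brightest gene averaged 14.84 at steady state. None of the 8 genes lay near this background in any group. PDA1 came closest to the top, with 14.18 at 56 min and 14.21 at 120 min.

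MPC3, the carrier subunit of respiring cells, stood at 8.28, 8.11 and 7.94 (log2 level) before the pulse in BY005, BY006 and BY007. At 7 min it stood at 10.65, 9.45 and 10.05, and at 24 min at 9.46, 9.52 and 9.25. All 3 arrays at 7 min and all 3 at 24 min lay above every steady-state array. The log2 difference from steady state was 1.94 ± 0.26 (SE of the fit, n = 3 against 3) at 7 min, or 3.85-fold, and 1.30 ± 0.26, or 2.46-fold, at 24 min. Within single fermentations the difference at 7 min was 2.37, 1.34 and 2.12, so BY006 moved least. MPC3 had one of the widest spreads of any gene at 7 min: its SD of 0.60 exceeded that of 99.3% of the genes.

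The course of MPC3 between 7 and 24 min was not the same in the 3 fermentations. From 7 to 24 min the log2 difference was -1.19 in BY005 and -0.81 in BY007 but 0.068 in BY006, and the arrays of the 2 times overlapped. The mean log2 difference from 7 to 24 min was -0.64, with an SD over the fermentations of 0.65. Without the 7 min array of BY005 it was -0.34, and without that of BY006 -0.94. In BY005, which had the dense sampling, MPC3 read 8.25 at 3 min, below its own steady state. It was highest at 7 min (10.65) and 10 min (10.57), lower at 14 min (10.09), lower still at 24 min (9.46), and higher again at 56 min (9.89) and 120 min (9.88). Ordered by group mean, 10 min came first, followed by 14 min, 7 min, 56 min, 120 min, 24 min, 3 min and steady state. At 3, 10, 14, 56 and 120 min this mean is 1 array of BY005, while the others average 3 fermentations. This order therefore mixes time with fermentation. The single arrays at 10, 14, 56 and 120 min all lay within the range of the 3 arrays at 7 min, so the order among these times is not larger than the spread between fermentations. The 3 min array lay within the range of the steady-state arrays. Ranked from the largest rise down, MPC3 was in place 9 of the 5449 genes at 7 min, 35 at 10 min, 91 at 14 min, 365 at 24 min, 239 at 56 min and 248 at 120 min.

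**Figure D1:**
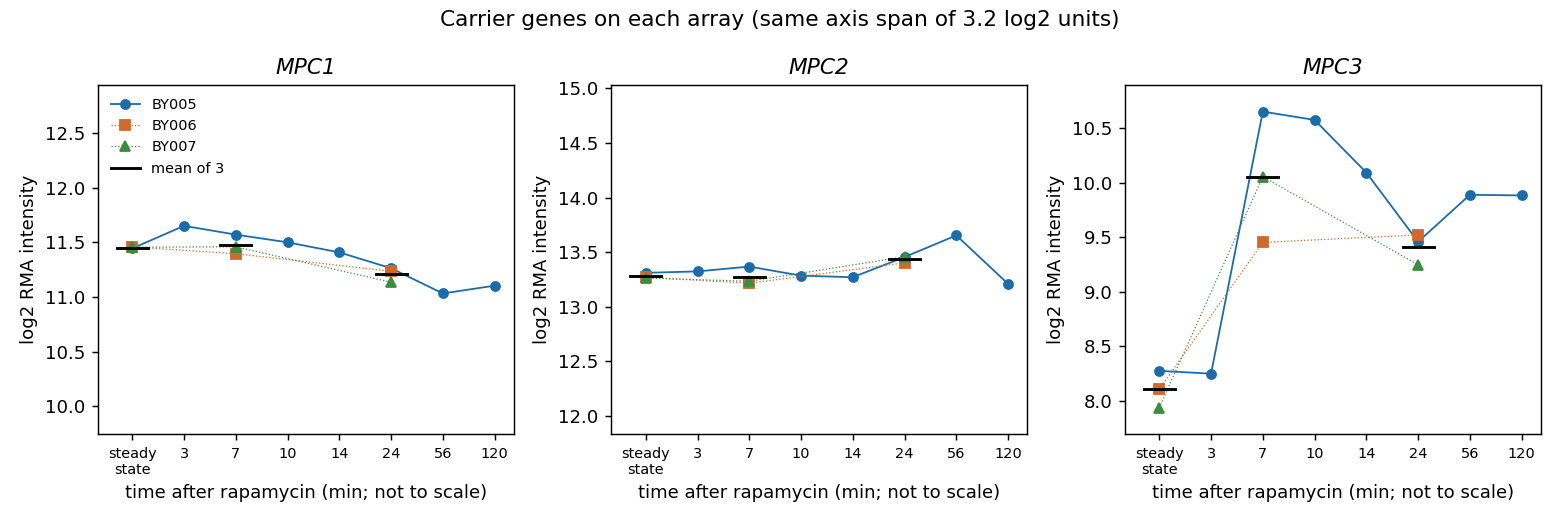
Log2 RMA intensity of the 3 carrier genes on each of the 14 arrays, by time after rapamycin, with the same axis span in each panel. Points are arrays coloured by fermentation, lines join the arrays of 1 fermentation and black bars are means of 3 arrays. MPC3 goes from 8.25 at 3 min to 10.65 at 7 min in BY005, while MPC1 and MPC2 stay within narrow ranges.

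MPC2, the partner in fermenting cells, hardly moved in the same time. It read 13.31, 13.27 and 13.26 before the pulse in BY005, BY006 and BY007, 13.37, 13.22 and 13.23 at 7 min, and 13.46, 13.40 and 13.46 at 24 min (log2 levels). The arrays of 7 min and steady state overlapped, with a log2 difference of -0.0089 ± 0.052. At 24 min all 3 arrays lay above all 3 steady-state arrays, by 0.16 ± 0.052 or 1.12-fold, while the median of all genes also read 0.11 higher. In BY005 MPC2 then went to its highest level at 56 min (13.65) and to its lowest at 120 min (13.21), each on 1 array.

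The isoforms therefore changed unequally. The MPC3 change exceeded the MPC2 change by 2.32, 1.40 and 2.15 log2 units in BY005, BY006 and BY007 at 7 min, a mean of 1.95 ± 0.49 (SD, n = 3) or 3.87-fold. At 24 min the excess was 1.04, 1.28 and 1.11, a mean of 1.14 ± 0.12 or 2.21-fold. It was positive in every fermentation at both times, and it does not depend on how the arrays are scaled, as far as a scaling moves all genes of an array by 1 factor. From 7 to 24 min the difference between the isoforms' changes was -1.28 in BY005, -0.12 in BY006 and -1.03 in BY007, so the excess was smaller at 24 min in all 3. Probe sets differ in brightness, so these differences do not tell which of the mRNAs was more abundant.

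MPC1, which encodes the common subunit, was below its steady-state level at 24 min, when MPC3 was above its own. It stood at 11.44, 11.46 and 11.46 before the pulse in BY005, BY006 and BY007, 11.57, 11.40 and 11.46 at 7 min, and 11.26, 11.23 and 11.13 at 24 min (log2 levels). The arrays at 24 min lay below all others of the replicated times, while those at 7 min overlapped with steady state. At 7 min the log2 difference was 0.023 ± 0.057 (limma adjusted p = 0.88). At 24 min MPC1 had fallen by 0.24 ± 0.057, or 1.18-fold (limma adjusted p = 0.0044, lower in 3 of 3 fermentations), where 30.4% of all genes were called lower. Against 7 min it fell by 0.26 ± 0.057 (limma adjusted p = 0.003), where 30.8% of all genes were called lower. In BY005 its highest reading, 11.65, came at 3 min, 0.20 ± 0.081 above steady state (limma adjusted p = 0.92), and its lowest, 11.03, at 56 min. With each array scaled on its hybridisation controls the 24 min differences read 0.74 ± 0.84 against steady state and 0.50 ± 0.84 against 7 min, so the fall is one relative to other genes. The excess of the MPC3 change over that of MPC1 was 1.92 ± 0.45 (SD, n = 3) at 7 min and 1.54 ± 0.16 at 24 min.

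The dehydrogenase genes had not changed detectably at 7 min and had risen together, by little, at 24 min. At 7 min 0 of the 5 passed the threshold, and their log2 differences ran from 0.026 ± 0.062 for PDB1 (limma adjusted p = 0.87) to 0.087 ± 0.049 for LAT1 (limma adjusted p = 0.37). Of all genes 0.826% were called higher and 0.0734% lower at that time. These were 49 genes, beside 1092 at an unadjusted p under 0.05. At 24 min all 5 were called higher, where 44.5% of all genes were. Their median log2 difference was 0.27, beside 0.11 over all genes.

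PDA1, the alpha subunit of the decarboxylase and the one inactivated by phosphorylation, had the largest of these rises. It read 13.63, 13.53 and 13.52 before the pulse in BY005, BY006 and BY007, 13.64, 13.64 and 13.57 at 7 min, and 14.02, 13.76 and 13.89 at 24 min (log2 levels). The arrays at 24 min lay above all of the earlier replicated ones. The rise was 0.34 ± 0.070 (limma adjusted p = 0.0021), or 1.26-fold. PDB1, for the beta subunit of the same component, went from 13.21, 13.09 and 13.08 at steady state to 13.43, 13.23 and 13.33 at 24 min. Its rise of 0.20 ± 0.062 (limma adjusted p = 0.015) was the smallest of the 5, and the 2 groups did not overlap. The call for PDB1 ended with quantile normalisation of the genes alone (0.13 ± 0.054, adjusted p = 0.063) and when steady state of BY006 (adjusted p = 0.054) or of BY007 (0.056) was left out.

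LAT1, the acetyltransferase core, went from 13.23, 13.30 and 13.25 at steady state to 13.30, 13.35 and 13.39 at 7 min and 13.62, 13.50 and 13.59 at 24 min. Among the 5 genes it alone had 7 min arrays that all lay above the steady-state ones. LAT1 was not called at 7 min (limma adjusted p = 0.37). How many of all genes separate in this way was not counted. The LAT1 rise at 24 min of 0.31 ± 0.049 had the smallest adjusted p of the 5 (limma, 4e-04). LPD1, shared with other dehydrogenases, went from 13.25, 13.14 and 13.15 to 13.54, 13.37 and 13.43 at 24 min. This was a rise of 0.27 ± 0.057 (limma adjusted p = 0.0022), the most even among the fermentations, with an SD of 0.029. PDX1, the tether for Lpd1, went from 10.94, 10.84 and 10.79 to 11.21, 10.95 and 11.09, a rise of 0.23 ± 0.075 (limma adjusted p = 0.022). The call for PDX1 was lost when 1 of 4 arrays was left out, namely steady state of BY006 (adjusted p = 0.061) or BY007 (0.076) and 24 min of BY005 (0.17 ± 0.073, adjusted p = 0.071) or BY007 (0.056). With hybridisation-control scaling all 5 differences at 24 min were larger, between 1.18 and 1.31, but none passed, as their SE was 0.84.

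MPC3 had moved least in BY006 at 7 min but most there at 24 min (log2 difference 1.41, beside 1.18 in BY005 and 1.31 in BY007). Each of the 5 dehydrogenase genes had its smallest difference at 24 min in BY006. At 7 min BY006 had the largest difference for PDA1, PDB1 and LPD1 and the smallest for LAT1 and PDX1. Between steady state and 24 min the 5 genes read 0.22 to 0.40 higher in BY005, 0.12 to 0.24 in BY006 and 0.25 to 0.37 in BY007. PDA1 had the largest of these differences in all 3. From 7 to 24 min 4 of the 5 passed, PDA1 (0.27 ± 0.070, limma adjusted p = 0.0071), LAT1 (0.22 ± 0.049, 0.0032), LPD1 (0.21 ± 0.057, 0.0099) and PDB1 (0.18 ± 0.062, 0.03), where 39.5% of all genes were called higher. PDX1 read 0.18 ± 0.075 higher (limma adjusted p = 0.059), and with the fermentation as a replicate block it passed (0.18 ± 0.049, adjusted p = 0.015), as it did with quantile normalisation of the genes alone (0.047), with a trended robust prior (0.049), and with 7 min of BY005 (0.043) or 24 min of BY006 (0.016) left out. PDB1 did not pass with quantile normalisation of the genes alone (adjusted p = 0.084), nor when 1 of 4 arrays was left out, namely 7 min of BY006 (0.062) or BY007 (0.082) and 24 min of BY005 (0.13, adjusted p = 0.093) or BY007 (0.069).

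**Figure D2:**
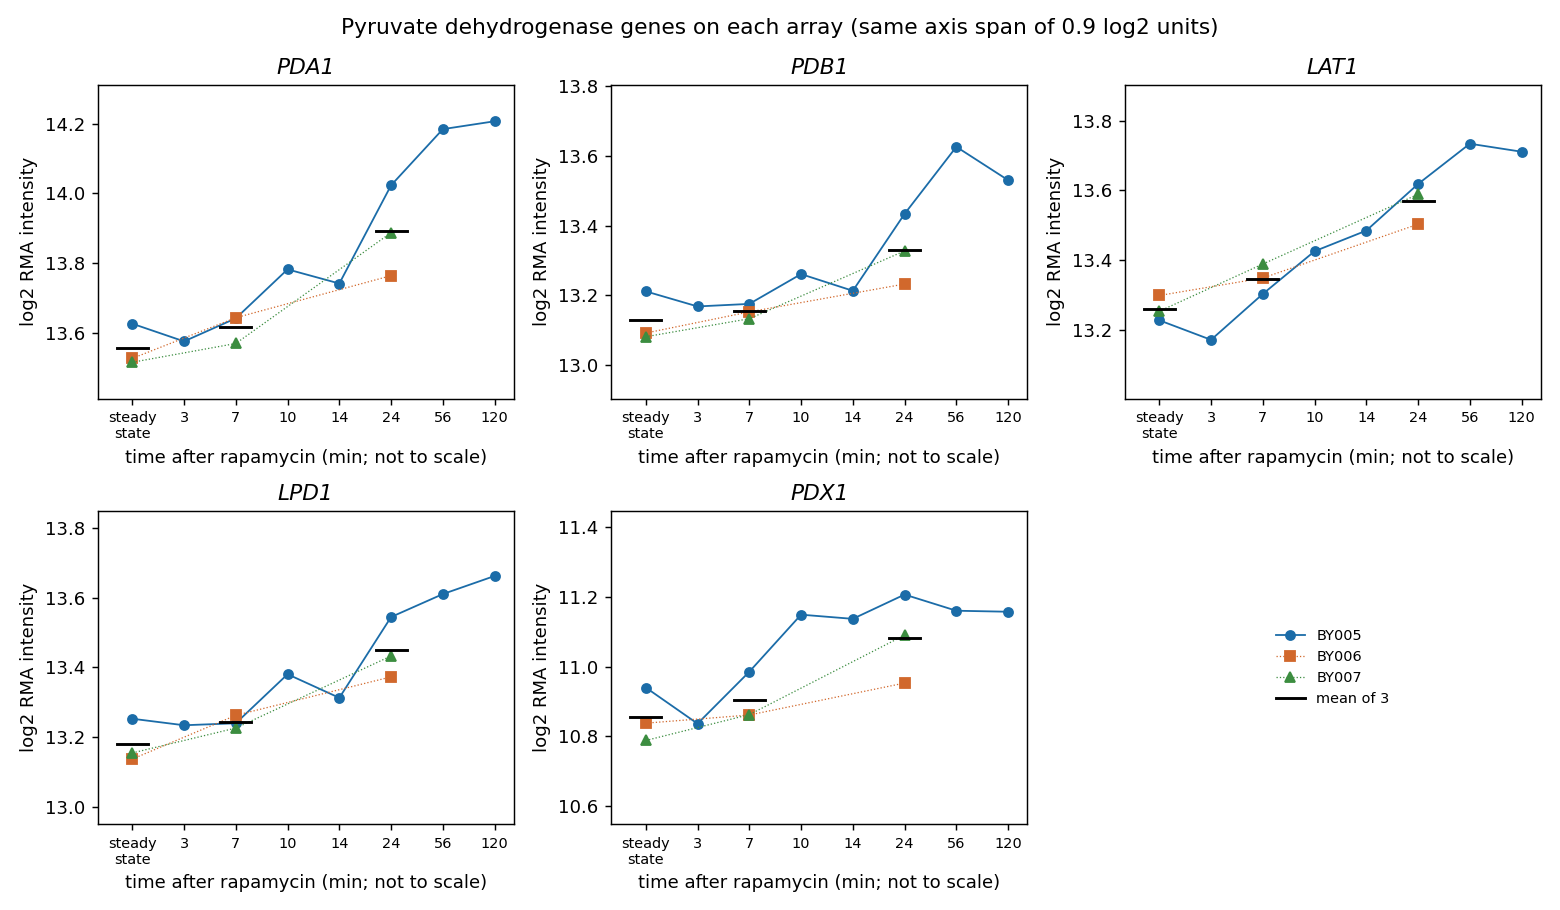
Log2 RMA intensity of the 5 pyruvate dehydrogenase genes on each of the 14 arrays, by time after rapamycin, with the same axis span in each panel. Points are arrays coloured by fermentation, lines join the arrays of 1 fermentation and black bars are means of 3 arrays. All 5 lie higher at 24 min than at steady state in each fermentation, with differences between 0.12 and 0.40, and PDA1 reaches 14.21 at 120 min.

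In BY005 the rise could be followed in time, on 1 array per time point whose spread was taken from the replicated times. At 3 min 0 of the 6 tested genes passed, as did 0% of all genes (limma; 287 had an unadjusted p under 0.05). Against its own steady-state array each dehydrogenase gene read lower at 3 min, with log2 differences from -0.10 (PDX1) to -0.019 (LPD1). At 10 min, when 42% of all genes were called in either direction, none of the 6 passed. PDX1 came closest, at 0.29 ± 0.11 above steady state (limma adjusted p = 0.054). At 14 min, when 55.5% of all genes were called, LAT1 was the only one of the 6 (0.23 ± 0.069, limma adjusted p = 0.023), while PDX1 read 0.28 ± 0.11 and did not pass.

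At 56 min all 6 were called, the dehydrogenase genes higher and MPC1 lower, where 71% of all genes were called in either direction. PDA1 stood 0.63 ± 0.099 above steady state (limma adjusted p = 0.00045), PDB1 0.50 ± 0.088, LAT1 0.47 ± 0.069, LPD1 0.43 ± 0.080 and PDX1 0.31 ± 0.11 (limma adjusted p = 0.029), while MPC1 had fallen by 0.42 ± 0.081 (limma adjusted p = 0.0015). The same 6 calls held at 120 min, where 66.7% of all genes were called. There PDA1 stood at 0.65 ± 0.099, or 1.57-fold, and PDX1 at 0.30 ± 0.11, and MPC1 had fallen by 0.35 ± 0.081. Set against BY005's own steady-state array, the highest of the 3 for PDA1, PDB1, LPD1 and PDX1, the log2 differences at 120 min were 0.58 for PDA1, 0.32 for PDB1, 0.41 for LPD1 and 0.22 for PDX1.

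PDX1 levelled off early in BY005. Its level was 11.15 at 10 min, 11.14 at 14 min, 11.21 at 24 min and 11.16 at both 56 and 120 min, while PDA1 went on from 13.78 at 10 min to 14.02 at 24 min and 14.21 at 120 min. Over the 14 arrays, which share their times and fermentations, PDA1 correlated with LPD1 at r = 0.99, with PDB1 at 0.98, with LAT1 at 0.93 and with PDX1 at 0.85. MPC1 ran opposite to them, from r = -0.60 with PDX1 to -0.91 with LAT1. MPC3 had r = 0.13 with MPC2, -0.20 with MPC1 and 0.37 to 0.61 with the dehydrogenase genes. Of the other 5448 genes, those that reached r of 0.9 or more numbered 667 with LAT1, 536 with PDA1, 522 with LPD1, 324 with PDB1, 92 with PDX1 and 89 with MPC1, beside 14 with MPC2 and 7 with MPC3.

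**Figure D3:**
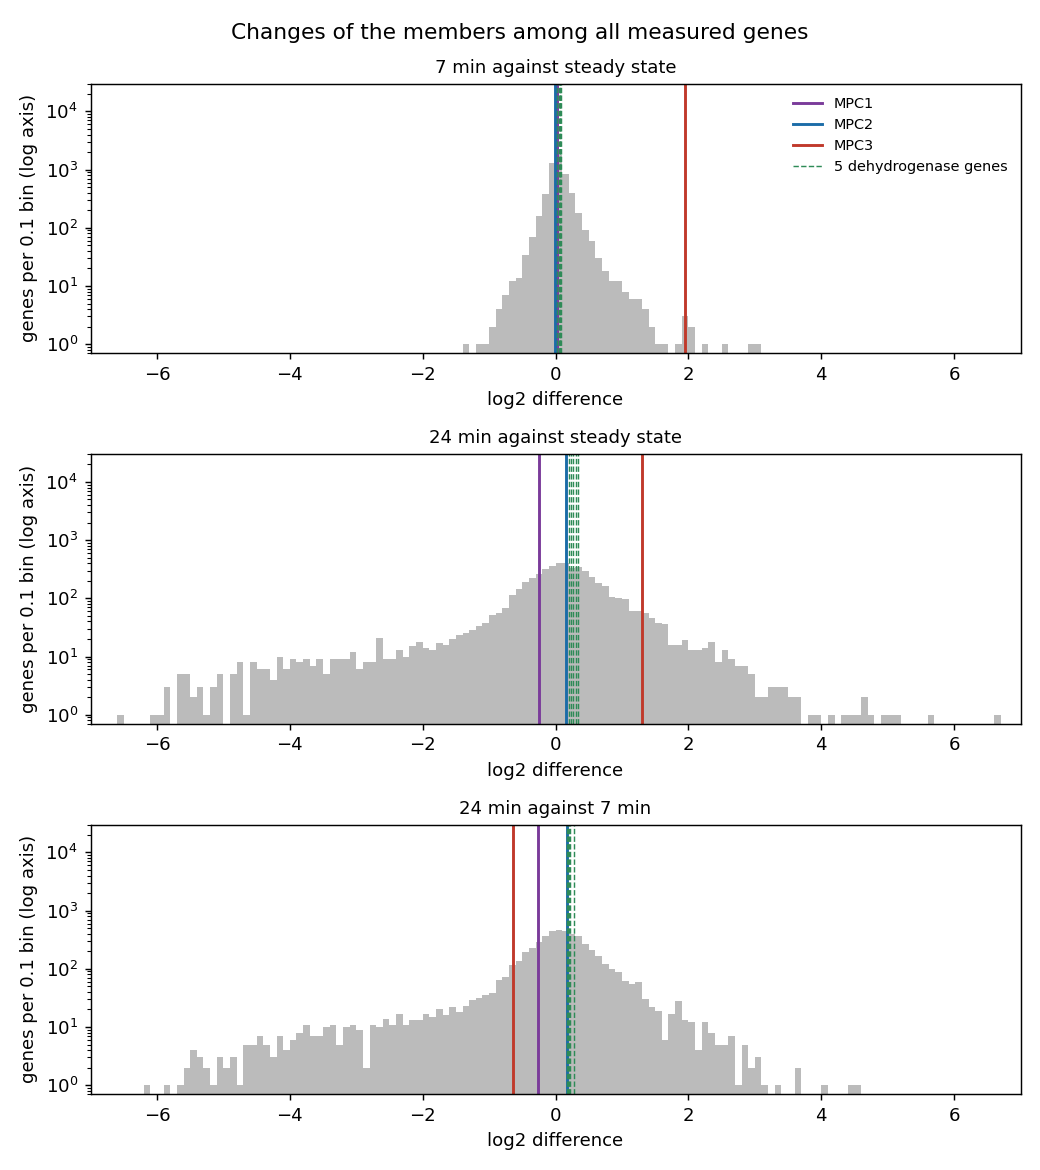
Distribution of the log2 differences of all 5449 genes at 7 and 24 min against steady state and at 24 against 7 min (grey, log axis), with the 8 genes as vertical lines. MPC3 lies at 1.94 in the first panel, in the thin upper tail, and at 1.30 in the second, whereas the dehydrogenase genes lie inside the bulk in all panels.

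The 5 genes most like MPC3 over the 14 arrays were YOR062C (r = 0.96), YNR014W (0.94), YLR177W (0.93), LEU5 (0.92), which encodes a mitochondrial carrier needed for coenzyme A in the matrix, and YGR122W (0.91). YOR062C read 1.29 above steady state at 7 min, 0.97 at 24 min and 1.26 at 120 min (log2), beside 1.94, 1.30 and 1.78 for MPC3. YNR014W read 1.39, 0.74 and 1.27 at these times, and LEU5 0.31, 0.26 and 0.29. Each of these 5 was lower at 7 min in BY006 than in the other 2 fermentations, as MPC3 was. They were picked by correlation over these same arrays, which favours this likeness, so it is a description only. How many of all genes were lowest in BY006 at 7 min was not counted. The least like MPC3 were CDC6, for a factor of DNA replication origins (r = -0.86), PZF1, for transcription factor TFIIIA (-0.86), the siroheme gene MET8 (-0.84), the mitochondrial RNA helicase gene MSS116 (-0.77) and the kinase cyclin gene BUR2 (-0.77).

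MPC2 was most like the zinc transporter gene YKE4 (r = 0.96), YBR096W (0.94), the aromatic aminotransferase gene ARO8 (0.93), the riboflavin synthesis gene RIB3 (0.92) and ASK10 (0.91). All of them peaked on the 56 min array, so these correlations rest much on 1 array. With correlation over the 8 time means in place of the 14 arrays, YNR014W, YLR177W and YOR062C held the first 3 places for MPC3, LEU5 place 17 and YGR122W place 27. For MPC2, ARO8 then held place 3, YKE4 place 6, YBR096W 10, ASK10 17 and RIB3 22.

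**Figure D4:**
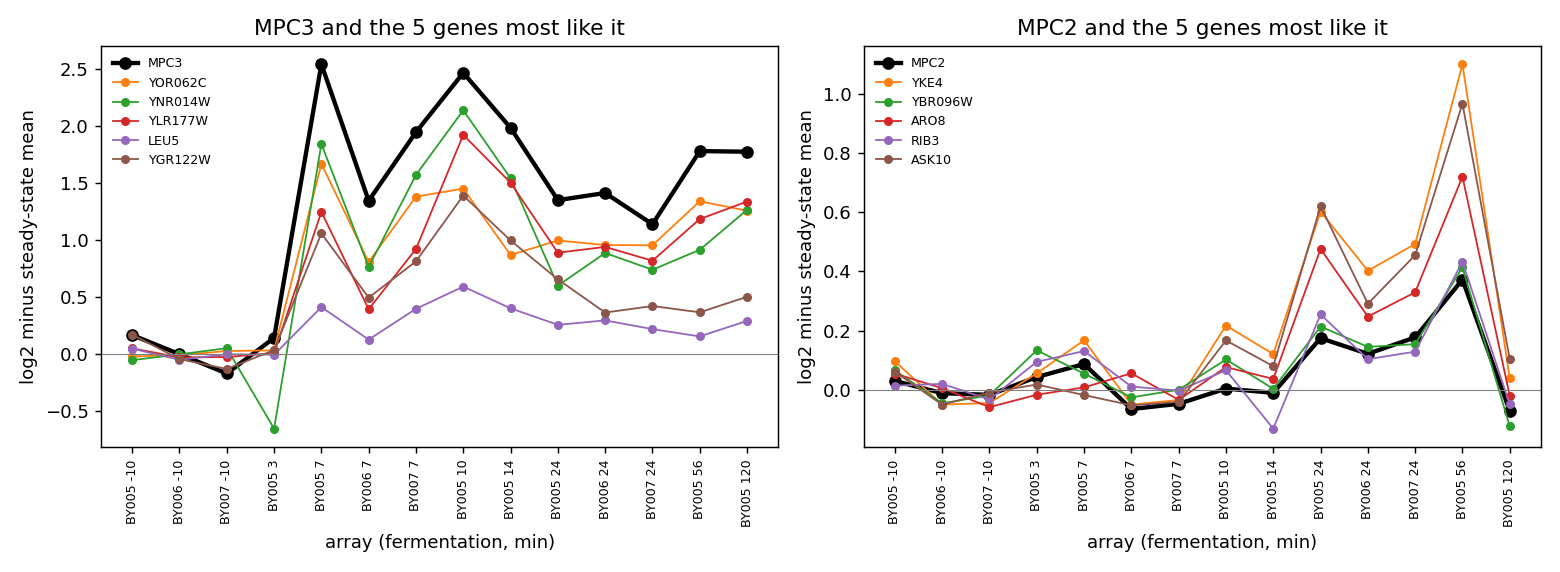
Log2 level minus the steady-state mean on each of the 14 arrays, ordered by time, for MPC3 (left) and MPC2 (right) in black with the 5 genes most correlated with each. The MPC3 group is high on the 7 and 10 min arrays with a dip in BY006 at 7 min. The MPC2 group peaks on the 56 min array, where MPC2 itself reads 0.37. The choice by correlation over these arrays favours such likeness.

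Most genes called higher at 7 min read higher still at 24 min, and MPC3 was not among these. Of the 45 genes called higher at 7 min, 16 read lower at 24 than at 7 min. In 12 of these it was so in all 3 fermentations, which was not the case for MPC3. The 45 were picked by their 7 min values, which the difference from 7 to 24 min uses again. That choice by itself favours lower readings at 24 min, so the counts are a description. MPC3 is counted among the 45 and the 16 because the fit over all genes called it higher at 7 min. It was chosen for its early rise, so that call is no test of MPC3. Among the 16, picked out after their values were seen, HAP4, the activating subunit of the HAP complex for respiratory genes, had a log2 difference from steady state of 0.70 at 7 min and -1.01 at 24 min, and MTH1, a repressor of hexose transporter genes, of 1.15 and -0.28. MPC3 stayed well above steady state, and so did YNR014W and YOR062C.

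The genes beside MPC3 on its chromosome did not share its early rise, at a time when only 0.826% of all genes were called higher. YAP1802, for an endocytic adaptor, read 0.16 ± 0.068 (limma adjusted p = 0.23) and LSC2, for a subunit of succinyl-CoA ligase, 0.10 ± 0.053 (limma adjusted p = 0.33) at 7 min, while MPC3 read 1.94 ± 0.26. At 24 min LSC2 had risen by 0.88 ± 0.053 (limma adjusted p = 9.8e-07) and YAP1802 read 0.11 ± 0.068 (limma adjusted p = 0.18). Both neighbours of MPC1 rose at 24 min while MPC1 fell, YGL081W by 1.54 ± 0.14 (limma adjusted p = 1.3e-05) and KXD1 by 0.19 ± 0.060 (limma adjusted p = 0.016). Of all genes 44.5% were called higher then. Both neighbours of PDA1 rose as PDA1 did, BMH1 by 0.24 ± 0.040 and DMC1 by 1.80 ± 0.11. Those of the remaining members were mixed: XKS1 beside PDX1 rose by 1.28 ± 0.14, while RNH201 beside LAT1 fell by 0.23 ± 0.055. The neighbours were looked up after the members' values had been seen.

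The genes for enzymes that switch the dehydrogenase complex off and on rose with it. All 4 genes for its kinases and phosphatases were called higher at 24 min, with a median log2 difference of 0.67 beside 0.11 over all genes, where 44.5% of all genes were called higher. At 7 min 0 of 4 were called, where 0.826% of all genes were called higher. PKP1, a kinase that switches Pda1 off, went from 9.44 ± 0.038 to 10.44 ± 0.15 (mean log2 ± SD, n = 3), a rise of 1.00 ± 0.094 (SE, limma adjusted p = 1.5e-05), and stood 1.77 above steady state at 120 min. The other kinase gene PKP2 rose by 0.31 ± 0.058 (limma adjusted p = 0.001). The phosphatase genes PTC6 and PTC5, whose products switch Pda1 on again, rose by 0.94 ± 0.086 and 0.39 ± 0.062. Of the 2 measured genes for lipoate attachment LIP2 rose (0.31 ± 0.057, limma adjusted p = 0.0011) and LIP5 read -0.14 ± 0.078 (limma adjusted p = 0.14), while LIP3 was not analysed here.

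Among the enzymes that share Lpd1 or carry lipoate, the 2-oxoglutarate dehydrogenase genes rose and the glycine cleavage genes did not. At 24 min 44.5% of all genes were called higher and 30.4% lower, and the counts here are read beside these shares. All 3 of the former were called higher at 24 min, KGD4 by 0.68 ± 0.062 (limma adjusted p = 1.2e-05), KGD2 by 0.67 ± 0.067 and KGD1 by 0.66 ± 0.054. GCV1 fell by 1.11 ± 0.067 (limma adjusted p = 1.1e-06), GCV2 fell by 0.46 ± 0.051, and GCV3 read -0.029 ± 0.042 (limma adjusted p = 0.55). LPD1, common to both, lay between them at 0.27, as did the other pyruvate dehydrogenase genes, from 0.20 for PDB1 to 0.34 for PDA1. All 13 citric acid cycle genes downstream were called higher, from FUM1 (0.35 ± 0.066) to the aconitase gene ACO1 (1.88 ± 0.10, limma adjusted p = 7e-07), with a median of 1.04 against 0.27 for the dehydrogenase genes.

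Among genes that feed or drain the pyruvate pool, the counts of calls at 24 min are read beside 44.5% of all genes called higher and 30.4% lower. Of 6 genes for pyruvate formation or uptake 4 were called higher and 1 lower. The 4 include JEN1, for a permease and not an enzyme (0.29 ± 0.10, limma adjusted p = 0.034). PYK2, a second pyruvate kinase, rose by 1.96 ± 0.14 (limma adjusted p = 2.5e-06). MAE1, the mitochondrial malic enzyme that makes pyruvate inside the matrix, fell by 3.16 ± 0.091, or 8.96-fold (limma adjusted p = 5.7e-08). Of 9 genes for pyruvate decarboxylase and the acetyl-CoA bypass 4 were called higher and 3 lower, shares near those of all genes. The list also holds genes for mitochondrial enzymes, so these counts do not describe the cytosolic route alone. The largest differences were those of PDC6 (3.02 ± 0.20, limma adjusted p = 1.8e-06) and the mitochondrial acetaldehyde dehydrogenase gene ALD5 (-1.11 ± 0.057, limma adjusted p = 4.5e-07). The 4 carnitine shuttle genes, whose products bring acetyl units into mitochondria, were all called higher. The carrier gene CRC1 rose by 2.38 ± 0.24 (limma adjusted p = 2.1e-05), from a steady-state mean of 5.91 that lay just above the background of 5.77, so its fold may be understated. Of the 2 pyruvate carboxylase genes PYC1 rose by 1.58 ± 0.065 (limma adjusted p = 1.4e-07) and PYC2 read 0.0068 ± 0.046.

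Of 8 genes for the amino acids made from pyruvate in mitochondria, 5 were called lower and 2 higher at 24 min. Of all genes 30.4% were called lower and 44.5% higher then. LEU9, an isopropylmalate synthase of leucine synthesis, fell by 2.48 ± 0.062 (limma adjusted p = 5.1e-08), and ALT1, the alanine transaminase that interconverts alanine and pyruvate, rose by 1.68 ± 0.065 (limma adjusted p = 1.3e-07). At 7 min 0 of the 54 measured genes in these 9 lists passed the threshold, a count near what the shares over all genes at that time, 0.826% higher and 0.0734% lower, would give.

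**Figure D5:**
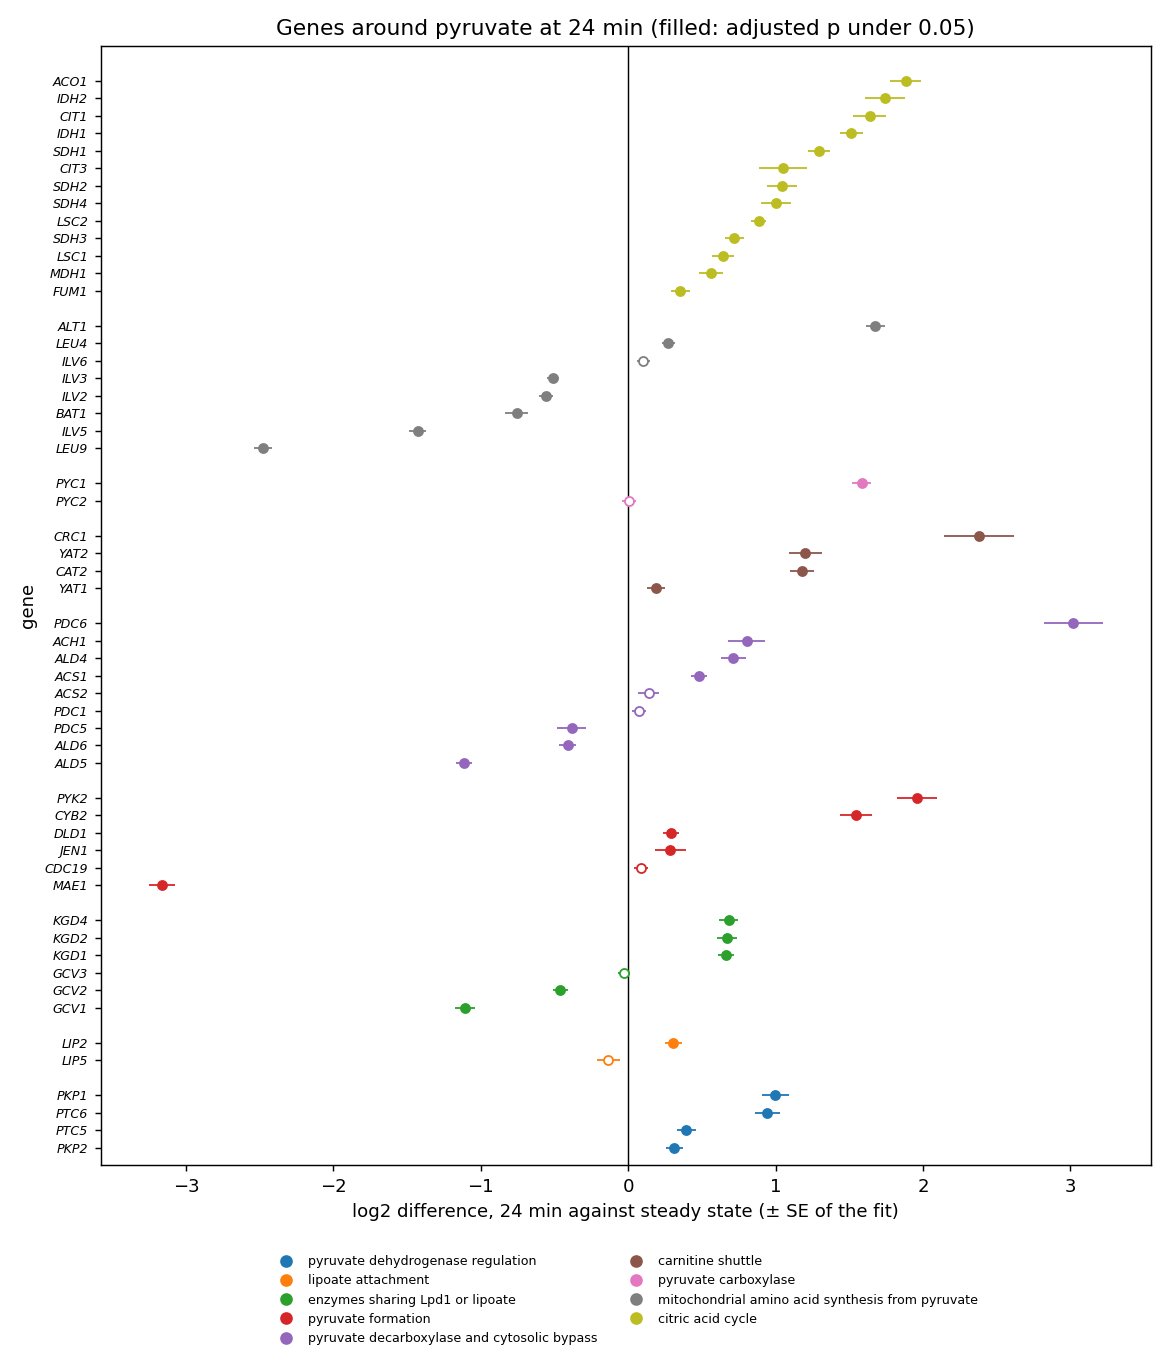
Log2 difference at 24 min against steady state, with the SE of the fit, for 54 genes around pyruvate in 9 lists marked by colour. Filled points passed an adjusted p under 0.05. The 13 citric acid cycle genes and the 4 kinase and phosphatase genes all lie above 0, while MAE1 lies at -3.16 and LEU9 at -2.48.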

How the data were processed

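The deposited values are probe set intensities that the authors made by RMA (affy, R 2.10.0), as named per the submitters' processing notes, on a linear scale as the values show. RMA corrects background, normalises quantiles and summarises probes. Here log2 was taken, probe sets with 1 budding yeast gene ID were kept (5498 of 10928, averaged per gene), and differences were fitted over all 5449 genes by lmFit and eBayes of limma 3.58.1 (R 4.3.3) over 14 arrays in 8 time groups, with 6 residual and 2.43 prior degrees of freedom. Benjamini-Hochberg adjustment ran over all genes and the threshold was 0.05. The scanner files, detection calls and scan batches were not used here, and the number of arrays limits the precision. The fit was tested on simulated data.

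The members and the 9 lists were chosen with earlier results of these data known. Named genes are the members, the largest rise and fall in each list at 24 min and the 5 genes most and least like MPC3 and the 5 most like MPC2, and some others were added to describe the lists. Same-fermentation arrays are repeated samples of 1 culture per the labels. The deviations from the time means correlated between -0.16 and 0.53 for the same fermentation and between -0.52 and 0.40 for different ones. Symbols and gene order came from a RefSeq gene table of assembly R64.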

Additional observations from a re-analysis of the deposited data

How the results depend on the processing

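The 15 alternatives, run for the comparisons among steady state, 7 and 24 min and not for the single-array times, were the fermentation as a replicate block, quantile normalisation of the genes alone, scaling on 9 hybridisation controls, only genes above background, no probe sets with shared probes, a trended robust prior, and each of the 9 replicated arrays left out. The excess of the MPC3 change over the MPC2 change lay between 1.70 and 2.23 at 7 min, 1.07 and 1.23 at 24 min, and -1.08 and -0.56 from 7 to 24 min with an array left out, and was 1.86, 1.27 and -0.59 with quantile normalisation of the genes alone. The other alternatives cannot alter it, and the pair was chosen on these values. Of the 6 tested members 0 were called at 7 min in any alternative, and 4 to 6 at 24 min and from 7 to 24 min with an array left out. The hybridisation controls ranged from 8.74 to 11.85 between arrays, gave a median SE of 0.84, and moved the median of all genes by 0.22 at 7 min and 0.98 at 24 min. With them 0 tested members passed in these 3 comparisons, and 0, 418 and 204 genes were called at 7 min, at 24 min and from 7 to 24 min, against 49, 4085 and 3830. At 7 min the count of genes was 118 with the replicate block, 31 with quantile normalisation of the genes alone, 77 with only genes above background (fewer genes tested) and 102 with the trended robust prior. It ran from 7 to 765 with an array left out, and for 24 min from 3827 to 4077 and for 24 against 7 min from 3516 to 3800. In these 3 comparisons the replicate block changed no other call of a member than that of PDX1 from 7 to 24 min.

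Some signs turned. At 7 min MPC1 read -0.014 with quantile normalisation and between -0.025 and 0.062 with an array left out. MPC2 read 0.21 with control scaling and between -0.057 and 0.019 with an array left out. With control scaling the called falls of MPC1 turned to 0.74 at 24 min and 0.50 from 7 to 24 min, and the -0.64 of MPC3 from 7 to 24 min to 0.12. Against the steady-state array of BY005, MPC2 at 10 min read -0.026, and at 3 min MPC3 read -0.026, PDA1 -0.051, PDB1 -0.043 and LPD1 -0.019. The cause of these turns was not tested.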
